A study of Arabidopsis thaliana with 9 samples.

Results

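The transcriptome of amp1-13 seedlings was compared with that of wild type. The comparison used the 6 arrays labelled amp1-13 or wild type among the 9 arrays of the study, 3 for each genotype, and all 22746 probe sets of the array other than the manufacturer's controls. Wild type was Col-0, and amp1-13, which the study describes as a strong loss-of-function allele, was in the same background. All seedlings were harvested whole at 10 days, after growth in plates of liquid MS medium that held sucrose and DMSO, in long days, so that the wild type carried the same solvent as the mutant. The study states that the amp1-13 arrays had already served in work on the compound hyperphyllin. The 3 remaining arrays carried RNA of the double mutant cyp78a5,7 and are used here as a second line set beside amp1-13.

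AMP1 encodes a putative carboxypeptidase at the endoplasmic reticulum. Plants that lack it have an enlarged shoot meristem, form leaves faster than wild type and have altered seed and embryo development, and AMP1 has been linked to translational repression of microRNA targets. CYP78A5 and CYP78A7 encode cytochrome P450 enzymes whose combined loss gives a similar shoot. Since whole seedlings were ground, more cells of a type and more RNA per cell cannot be told apart in any of the values given here. AMP1 itself was not analysed here, so the genotype was not checked against the transcript of the mutated gene.

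The values are MAS5 signals, a linear measure of brightness summarized for each probe set. The median signal was 31.1 to 38.9 on the wild type arrays and 37.7 to 38.4 on the amp1-13 arrays, and 34.5% to 38.3% of probe sets lay under a signal of 16 on these 6 arrays. Arrays of one genotype correlated at 0.9721 to 0.9882 in wild type and at 0.9859 to 0.991 in amp1-13, over probe sets that are not independent, and arrays of different genotype at 0.9472 to 0.9715. Leaf transcripts such as RCA and root transcripts such as PYK10 were among the brightest in both genotypes. A gene could be named for 13513 probe sets by the platform's annotation and for 820 more only through a table of the study, which lists genes selected as changed on these same arrays, so the source of the name is given beside the counts of called members.

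In total, 410 probe sets were called higher in amp1-13 (1.8% of all tested) and 181 lower (0.796%), 591 in either direction (2.6%), with an adjusted p under 0.05 in limma and a 2-fold change or more. The median log2 fold change was 1.27 among the calls higher and -1.22 among the calls lower, against -0.011 over all probe sets. The 3 amp1-13 arrays lay all above or all below the wild type arrays for 409 of the 410 and 181 of the 181, against 14.5% of all probe sets above and 17.7% below. The thresholds of a call all but require this. A lack of overlap given for single called genes below is therefore a description and not further support. A change of at least 4-fold was measured for 31 of the probe sets called higher and 7 of those called lower. Without the fold threshold, 2734 probe sets passed (12.0%), of which 1217 were higher (5.35%) and 1517 lower (6.67%), so the lower changes were more numerous but smaller. Among probe sets named by the annotation, 1.28% were called higher and 0.784% lower (2.06% in all), and among those whose name came only from the study, 13.7% and 5.61% (19.3% in all). The counts of called list members given below are to be read beside these shares. Of the 7910 probe sets without a name, 1.47% were called higher and 0.329% lower (1.8% in all), and the genes behind them are not described. In the plot of fold change against signal, 5.98% of the 5687 brightest probe sets were called. None of the 5687 dimmest was, but their mean log2 of 4.01 to 4.52 lay so close to the floor set by the offset that a 2-fold change could hardly be measured there.

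**Figure D1:**
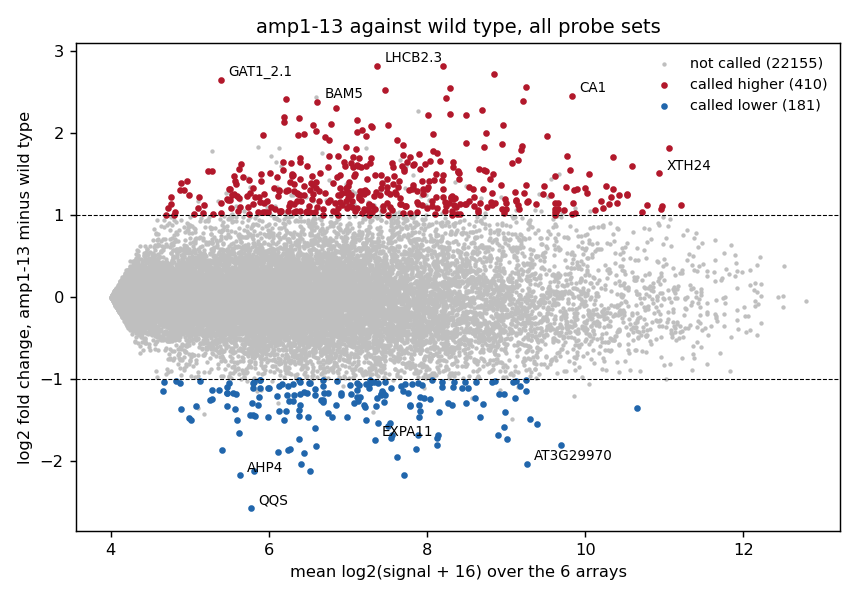
The log2 fold change of amp1-13 over wild type is plotted against the mean log2(signal + 16) over the 6 arrays, with 1 point for each of 22746 probe sets and dashed lines at 2-fold. The 410 probe sets called higher are red and the 181 called lower blue, and the labelled genes are described in the text.

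Some nuclear genes for photosynthesis and carbon fixation rose in amp1-13. In the seedling, light-harvesting proteins pass absorbed energy to the photosystems, and the Calvin cycle uses the products to fix carbon. Of 22 listed genes of carbon fixation, 7 had a named probe set. All 7 passed the adjusted p and were higher, against 5.35% of all probe sets. The 4 named by the study table were listed there as changed on these arrays, which favours their passing. The median log2 fold change was 1.18, and 4 genes rose by at least 2-fold. These were 2 of the 3 named by the annotation, PRK and SBPASE, and 2 of the 4 named by the study table, CA1 and the cytosolic FBA5. The 4 calls held without any single array.

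CA1, the chloroplast carbonic anhydrase, had signals of 400.5, 443.5 and 287.2 on wild type arrays 1 to 3 and of 2260, 2023 and 1842 on the amp1-13 arrays. All amp1-13 arrays thus lay far above all wild type arrays, and the log2 fold change was 2.45 ± 0.17 (SE), adjusted p = 0.000859. PRK, the phosphoribulokinase that regenerates the CO2 acceptor, had signals of 568.1, 744.1 and 569.9 in wild type and of 1826, 1750 and 1648 in amp1-13, a log2 fold change of 1.51 ± 0.17 (SE). SBPASE, the sedoheptulose bisphosphatase of the same cycle, went from 351.9 ± 40.9 (SD, n = 3) to 805.9 ± 73.4 (SD, n = 3). Rubisco activase, encoded by RCA, was far brighter than either, at 2289 ± 402 (SD, n = 3) in wild type and 3529 ± 431 (SD, n = 3) in amp1-13, and its log2 difference of 0.78 passed the adjusted p (0.0177) but not the fold threshold.

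FBA5 encodes a fructose-bisphosphate aldolase of the cytosolic type, so it does not belong to the plastid cycle itself. Its signals were 20.2, 11.3 and 20.4 in wild type and 153.5, 143.6 and 131.6 in amp1-13, with a log2 fold change of 2.2 ± 0.16 (SE) and an adjusted p of 0.00091. The groups did not overlap, and the 3 amp1-13 values lay within a narrow range.

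Among the 8 measured genes of light harvesting and the photosystems, all had a positive log2 fold change, and 2 were called, 1 of the 7 named by the annotation and the 1 named by the study table. The median was 0.44. LHCB2.3, an antenna protein of photosystem II, had, together with the copper protein gene BCB, the largest rise of the named genes. Its signals were 66.8, 37.4 and 34.1 in wild type and 542, 353.6 and 380.7 in amp1-13, with a log2 fold change of 2.82 ± 0.33 (SE) and an adjusted p of 0.00317. PSBY, a small subunit of photosystem II, rose from 993.3 ± 134 (SD, n = 3) to 2180 ± 180 (SD, n = 3). PSAE-1, a photosystem I subunit that was the brightest of these genes in wild type, showed a log2 difference of 0.38, adjusted p = 0.0838, and was not called.

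In tetrapyrrole synthesis, which makes chlorophyll and haem, 1 of 7 measured genes was called, the only member named by the study table and none of the 6 named by the annotation, and all 7 had a positive log2 fold change with a median of 0.50. That gene was HEMA1, which encodes the glutamyl-tRNA reductase of the first committed step. HEMA1 had signals of 95.7, 93.2 and 80.4 in wild type and of 248.9, 221.4 and 187 in amp1-13, log2 fold change 1.11 ± 0.24 (SE), adjusted p = 0.0217. The arrays did not overlap, but the call was lost without amp1-13 array 1 or 2 or wild type array 1 or 3, and with no offset or an offset of 64. CHLM, the methyltransferase of the chlorophyll branch, differed by 0.28 and was not called.

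**Figure D2:**
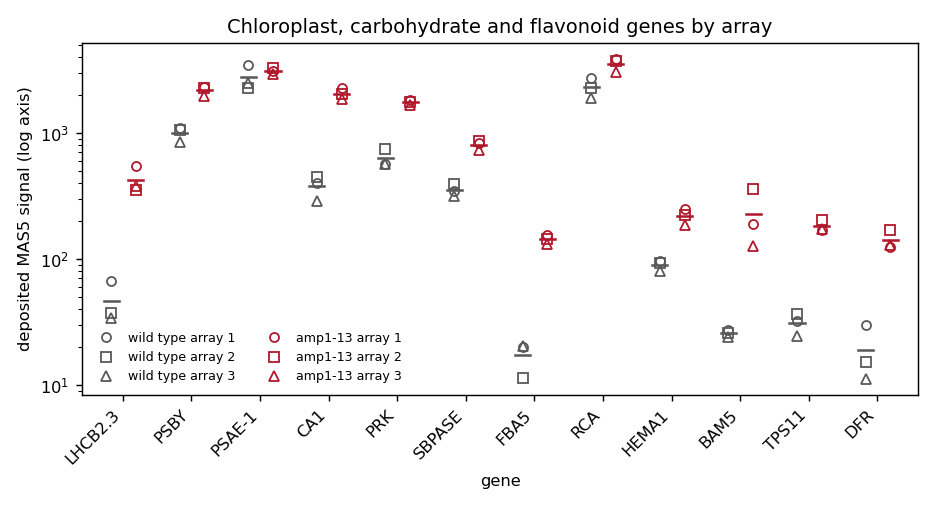
The deposited signal (log axis) of 12 genes is shown for each of the 3 wild type arrays (grey) and the 3 amp1-13 arrays (red), with bars at the means of the signals. The genotypes did not overlap for any gene other than PSAE-1, whose wild type array 1 lay above the amp1-13 arrays before normalization, and PSAE-1 and RCA were not called.

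The plastid genome itself encodes photosystem and ribosome subunits. Of its 69 annotated probe sets, 12 were called higher and none lower against 1.28% and 0.784% of all annotated probe sets, the median log2 fold change was 0.56, and 61 were positive. The largest rise was that of psbC, a chlorophyll-binding core protein of photosystem II, with signals of 216, 306.1 and 210 in wild type and 721.7, 1100 and 934.3 in amp1-13, a log2 fold change of 1.87 ± 0.34 (SE). The large subunit of Rubisco, rbcL, went from 249.2, 228.3 and 190 to 415.4, 518.9 and 442.7, a log2 fold change of 1.01. The other 10 calls were cemA, ycf3, the photosystem genes psaB, psbD, psbH, psbN and psbZ and the ribosomal protein genes rpl14, rpl36 and rps19, whereas psbL and psbJ had log2 differences of -0.21 and -0.20.

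These plastid calls rested on few arrays. The mean of the 69 probe sets, relative to the wild type mean on the log2 scale, was -0.18, 0.19 and -0.02 on wild type arrays 1 to 3 and 0.33, 0.72 and 0.70 on the amp1-13 arrays, so that wild type array 2 came close to amp1-13 array 1. On cyp78a5,7 arrays 1 to 3 this mean was 0.64, 0.11 and 0.32, so a positive mean was not particular to amp1-13. The count of calls was 1 without wild type array 3, 1 without amp1-13 array 2, 3 without wild type array 1, 5 without amp1-13 array 3, 7 without amp1-13 array 1, 19 without wild type array 2 and 8 without cyp78a5,7 array 3, which enters the estimate of the spread. It was 3 without the offset and 5 with an offset of 64. The median remained between 0.40 and 0.75 over all these settings. The psbC call was lost without amp1-13 array 2 or wild type array 3, and so was the rbcL call, which was also lost on the deposited values without quantile normalization, after centring on the 75th percentile, with no offset and with an offset of 64.

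Genes of starch and sugar response rose in part. Of 14 measured genes 5 were called higher, 1 of 7 named by the annotation and 4 of 7 named by the study table, none was called lower, and all 5 calls held without any single array. BAM5, a beta-amylase, had signals of 27.2, 25.9 and 24.2 in wild type and of 190.5, 360.7 and 127.7 in amp1-13, log2 fold change 2.38 ± 0.32 (SE), adjusted p = 0.00401. The amp1-13 arrays spread widely, with array 2 highest, and all lay above wild type. TPS11, a trehalose phosphate synthase-like protein, rose by a log2 fold change of 2.02, BT2, a scaffold protein induced by low sugar and nitrate, by 2.09, the hexose transporter STP13 by 1.86 and the alpha-amylase AMY1 by 1.22. SEX4, a phosphatase needed for starch breakdown, had a log2 difference of -0.94 and SWEET11, a sucrose exporter, one of 0.36, and neither was called.

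Both measured genes of flavonoid and anthocyanin synthesis passed the adjusted p, and 1 was called. DFR, the dihydroflavonol reductase at the entry to anthocyanins, went from signals of 30.2, 15.3 and 11.2 to 125.1, 168.2 and 128.6, log2 fold change 2.13 ± 0.22 (SE), adjusted p = 0.00232. UF3GT, an anthocyanin glycosyltransferase, differed by 0.58. Among the largest rises there were also 2 genes of nitrogen metabolism. GLU2, a ferredoxin-dependent glutamate synthase, went from 15.6 ± 2.34 (SD, n = 3) to 158.2 ± 10.4 (SD, n = 3), log2 fold change 2.42. GAT1_2.1, a glutamine amidotransferase-like protein, lay under a signal of 1 on all wild type arrays and at 139.7, 71.1 and 78.7 on the amp1-13 arrays, a fitted log2 fold change of 2.65 that the offset of 16 compresses. AT3G15450 rose by 2.72 and NEET, an iron-sulphur protein of the organelles, by 2.53.

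A second large group of rises was formed by genes that seedlings induce within minutes of touch, wounding or elicitors. Of 29 measured rapid wound and defence transcription factors, 16 were called higher and none lower, 3 of the 4 named by the annotation and 13 of the 25 named by the study table, with a median log2 fold change of 1.27 and 28 of 29 positive. WRKY33, a regulator of camalexin and defence genes, had signals of 123, 123.3 and 89.8 in wild type and of 1056, 622.6 and 563.6 in amp1-13, log2 fold change 2.55 ± 0.38 (SE), adjusted p = 0.00642. WRKY40, a defence repressor, had signals of 205.2, 78.8 and 89.4 in wild type and of 1133, 480.5 and 538.8 in amp1-13, log2 fold change 2.43 ± 0.49 (SE). For both genes amp1-13 array 1 was the highest array by far, and no wild type array reached an amp1-13 array. SZF1 and MYB15, a zinc finger protein and a MYB factor of stress responses, rose by 2.28 and 1.97, whereas ERF4, an ethylene response factor, had a difference of 0.75 and was not called.

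The same array stood above the others over the whole list. The mean of the 29 genes relative to the wild type mean was 1.70 on amp1-13 array 1, 1.09 on array 2 and 1.11 on array 3, and 0.26, -0.18 and -0.08 on wild type arrays 1 to 3. The count of 16 calls fell to 6 without amp1-13 array 1, 9 without amp1-13 array 2, 10 without amp1-13 array 3 and 5 without wild type array 3, and it was 10 with no offset and 7 with an offset of 64. The WRKY33 call held in every leave-out. The WRKY40 call was lost without amp1-13 array 1 or wild type array 3, that of SZF1 without any one of the 6 arrays or cyp78a5,7 array 2, and that of MYB15 without any amp1-13 array, wild type array 2 or 3 or cyp78a5,7 array 2. Neither of the latter calls held with no offset or with an offset of 64.

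Genes of touch and calcium response behaved more evenly. Of 15 measured genes, 6 were called higher and none lower, 1 of 6 named by the annotation and 5 of 9 by the study table, and 5 or 6 were called whichever array was left out. TCH4, also called XTH22, the touch-induced xyloglucan endotransglucosylase, had signals of 500.5, 131.8 and 202.6 in wild type and of 2073, 1109 and 1252 in amp1-13, log2 fold change 2.56 ± 0.42 (SE), adjusted p = 0.00885. Array 1 was highest in both genotypes, and the groups did not overlap. EXO, which promotes cell expansion under brassinosteroids, rose from 150.8 ± 28.4 (SD, n = 3) to 751.1 ± 155 (SD, n = 3). XTH23 rose by 2.16 and RBOHD, the NADPH oxidase of the oxidative burst, by 1.84. CML38, a calmodulin-like protein of the same list, differed by 0.69 and was not called.

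For salicylic acid and pathogenesis, 5 of 14 measured genes were called higher and none lower, all 5 among the 12 named by the study table, and all 14 had a positive log2 fold change with a median of 0.76. The mean of the list relative to wild type was 0.87, 0.71 and 0.90 on the 3 amp1-13 arrays. EARLI1, a lipid-transfer type protein of systemic resistance, rose from signals of 320.9, 309.9 and 237.6 to 791.4, 673.5 and 792.2, a log2 fold change of 1.37 ± 0.17 (SE), and the salicylic acid receptor NPR3 by 1.32. The pathogenesis genes PR2 and PR1 were dim, at 2.91 ± 2.48 (SD, n = 3) and 14.0 ± 2.19 (SD, n = 3) in wild type and at 34.0 ± 16.2 (SD, n = 3) and 62.6 ± 24.4 (SD, n = 3) in amp1-13. The count of 5 was 3 without amp1-13 array 1, 2 without amp1-13 array 3, 3 without wild type array 3 and 2 with an offset of 64. NPR3 lost its call without amp1-13 array 1 or 3 or wild type array 3, and PR1 without amp1-13 array 2 or 3 or wild type array 1 or 3.

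Jasmonate genes gave a less uniform picture. Of 29 measured genes 5 were called higher and 1 lower, none of the 6 named by the annotation, whose median was -0.27 against 0.68 over the whole list. All calls were among the 23 named by the study table, against 13.7% called higher and 5.61% lower over all probe sets so named. JAZ1, a repressor that jasmonate itself induces, had signals of 148.7, 144.1 and 92.4 in wild type and of 953.6, 568.2 and 492 in amp1-13, log2 fold change 2.24 ± 0.25 (SE), adjusted p = 0.0028, and was called in every leave-out. Further rises were JAZ8 (1.98), JAZ2 (1.38) and LOX3 (1.38), a lipoxygenase that starts jasmonate synthesis. ORA59, an ethylene and jasmonate response factor, fell by 1.06 on the log2 scale. The defensin gene PDF1.2A had a difference of -1.35 and was not called.

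The mean of the jasmonate list was 1.08 on amp1-13 array 1 against 0.47 and 0.49 on arrays 2 and 3. The count of calls higher was 1 without amp1-13 array 1, 2 without amp1-13 array 2, 1 without wild type array 3, and 3 without wild type array 1, wild type array 2 or cyp78a5,7 array 2. It was 3 in the fit of the 6 arrays alone, 2 with no offset and 1 with an offset of 64. JAZ8 lost its call without amp1-13 array 1 or 2 or wild type array 3. JAZ2 and LOX3 lost theirs without most of the arrays, amp1-13 array 1 and wild type arrays 1 and 3 among them. ORA59 lost its call without amp1-13 array 1 or 2 or wild type array 1 or 3.

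**Figure D3:**
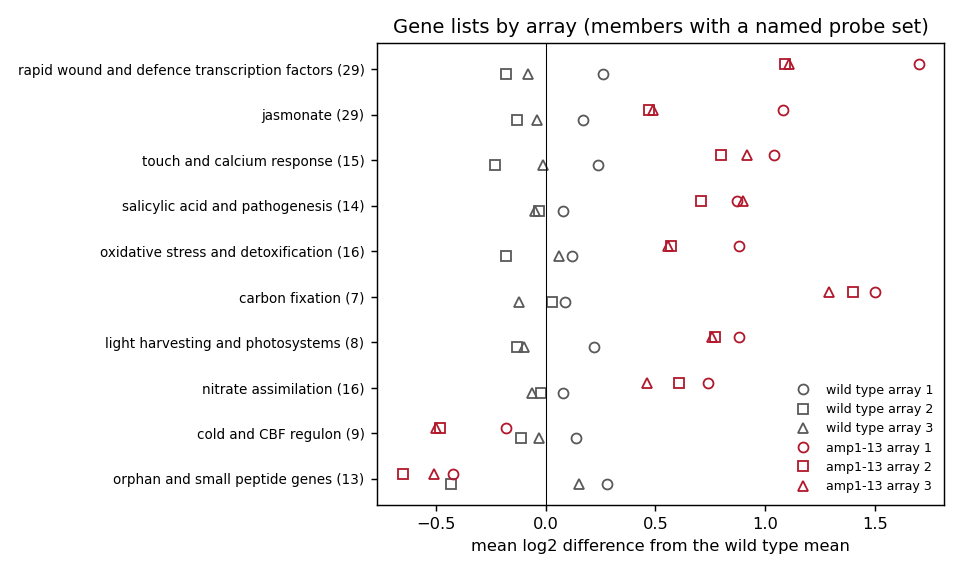
The mean log2 difference from the wild type mean is shown for 10 gene lists on each wild type array (grey) and amp1-13 array (red), with the number of measured members in brackets. In the wound and jasmonate lists amp1-13 array 1 stands apart at 1.70 and 1.08, whereas for carbon fixation the 3 amp1-13 arrays lie between 1.29 and 1.5.

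Several detoxification and secondary metabolism genes also rose. Of 16 measured genes of oxidative stress, 5 were called higher, all of them among the 11 named by the study table, and none lower. The median log2 fold change was 0.62 over the list but -0.03 over the 5 named by the annotation, and 11 genes were positive and 5 negative. BCB, a blue copper protein induced by oxidative and metal stress, had signals of 212, 46.9 and 77.0 in wild type and of 955.8, 575.4 and 730.4 in amp1-13, log2 fold change 2.82 ± 0.45 (SE), adjusted p = 0.00801. The wild type arrays spread more than the mutant arrays on this gene, and no wild type array reached an amp1-13 array. BCS1, also called OM66, a mitochondrial outer membrane ATPase, rose by 2.1. Of 11 glucosinolate genes 2 were called higher, both among the 9 named by the study table, CYP81F2, which modifies indole glucosinolates (2.3), and IGMT2, which methylates them (1.21). The median of the glucosinolate genes was 0.36, and -0.07 over the 2 named by the annotation. Without amp1-13 array 2 the call of IGMT2 was lost, and 1 gene of this list was called.

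Of 16 measured nitrate genes, all named by the study table, 5 were called higher and none lower, against 13.7% and 5.61% of all probe sets so named. The low-affinity nitrate transporter NRT1.8 rose from 38.2 ± 4.43 (SD, n = 3) to 195.8 ± 12.9 (SD, n = 3), a log2 fold change of 1.92 ± 0.19 (SE) that held without any single array. The nitrate reductase genes NIA1 and NIA2 had log2 fold changes of 1.61 and 0.85, of which only that of NIA1 was called, and the nitrite reductase NIR1 one of 1.06. The count of 5 was 1 without amp1-13 array 2 or wild type array 3, 2 without amp1-13 array 1, wild type array 1 or cyp78a5,7 array 2, and 3 without amp1-13 array 3 or wild type array 2. NIR1 lost its call without any one of the 6 arrays, and NIA1 without amp1-13 array 2 or wild type array 3. The count was 2 with no offset and 2 with an offset of 64.

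Cell wall genes moved both ways. Expansins loosen the wall and xyloglucan endotransglucosylases (XTH) cut and rejoin xyloglucan during growth. Of 27 measured genes 4 rose, 2 of the 19 named by the annotation and 2 of the 8 named by the study table, and 3 fell, 1 and 2 respectively, with a median of -0.16. XTH24, the brightest of those called, had signals of 1124, 1430 and 1101 in wild type and of 3163, 3459 and 2995 in amp1-13, log2 fold change 1.51 ± 0.15 (SE), adjusted p = 0.00181. EXLA1, an expansin-like protein, and XTH6 rose by 1.66 and 1.64. EXPA11, an expansin, had signals of 241.8, 266.9 and 334.5 in wild type and of 62.6, 74.0 and 91.4 in amp1-13, and fell by 1.74 on the log2 scale (SE 0.22). Groups did not overlap for any of these genes.

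EXPA8 and XTH5 fell by 1.27 and 1.38 on the log2 scale. The expansin EXPA1, brightest of the list in wild type among those not called, differed by -0.82 with overlapping arrays. Without wild type array 3 only 1 fall remained called in this list, and EXLA1, EXPA8 and XTH5 were among the calls lost. Without wild type array 2 or amp1-13 array 1, 5 falls were called. XTH6 lost its call without amp1-13 array 1.

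The largest fall of all named genes was that of QQS, an orphan gene whose product affects starch and protein content. QQS had signals of 195.1, 74.1 and 108.5 in wild type and of 6.64, 6.42 and 7.21 in amp1-13, log2 fold change -2.57 ± 0.28 (SE), adjusted p = 0.00253. The mutant values were almost identical, and the wild type values differed among themselves. Of the 13 measured orphan and small peptide genes 3 were called lower and none higher, 1 of 7 named by the annotation and 2 of 6 by the study table. RGF9, a root meristem growth factor peptide, fell from signals of 496.2, 401.3 and 614.7 to 106.4, 114.3 and 221.6, and LTP4, a lipid transfer protein, from 95.8 ± 18.1 (SD, n = 3) to 28.9 ± 4.16 (SD, n = 3). The 3 calls held in every leave-out, and without wild type array 2 the count rose to 6.

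Cytokinin, whose level is known to be raised in amp1 mutants, acts through a phosphorelay from receptors over phosphotransfer proteins to response regulators. Of 11 measured genes of its synthesis, breakdown and signalling, 2 were called higher and 2 lower, none of the 4 named by the annotation. Both falls were phosphotransfer proteins. AHP4 had signals of 87.2, 62.2 and 120.5 in wild type and of 3.66, 12.4 and 7.85 in amp1-13, log2 fold change -2.17 ± 0.29 (SE), adjusted p = 0.00401. AHP3 went from 727.3, 386.9 and 736.8 to 209.8, 256.6 and 249.3, log2 fold change -1.23 ± 0.20 (SE). In both genes all mutant arrays lay below all wild type arrays and the call held without any array.

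Both rises were enzymes that inactivate cytokinin, the oxidase CKX4 (1.13, adjusted p = 0.023) and the glycosyltransferase UGT85A1 (1.44, adjusted p = 0.0234). Neither call was stable. CKX4 went from a signal of 8.23 ± 1.99 (SD, n = 3) to 39.6 ± 4.96 (SD, n = 3), and its call was lost without any amp1-13 array or without wild type array 1 or 3. The UGT85A1 call was lost without any amp1-13 array or without wild type array 3. The response regulators ARR15, ARR16 and ARR3, which cytokinin induces, had log2 differences of 0.03, -0.41 and -0.58 and were not called.

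Of 18 measured auxin genes none was called higher and 2 were called lower, 1 of 10 named by the annotation and 1 of 8 by the study table. IAA29, a repressor of auxin response linked to shade growth, had signals of 37.1, 37.4 and 33.2 in wild type and of 5.75, 1.23 and 10.1 in amp1-13, log2 fold change -1.33 ± 0.16 (SE), adjusted p = 0.00318. IAA4 fell from 243.5 ± 65 (SD, n = 3) to 97.7 ± 30.8 (SD, n = 3) and lost its call without amp1-13 array 1 or 2 or wild type array 1 or 3. The IAA29 call held in every leave-out but was lost with no offset and with an offset of 64. TAA1, an enzyme of auxin synthesis, and the GH3 conjugating enzymes GH3.1, GH3.3 and GH3.5 had log2 differences between -0.04 and 0.12. GASA6, a gibberellin-regulated peptide, fell by 1.73 on the log2 scale and was the only one called of 12 genes of gibberellin and brassinosteroid, 9 of which were named by the study table, GASA6 among them, a call lost without wild type array 3.

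Of 9 measured genes of the cold regulon 3 were called lower, 1 of 3 named by the annotation and 2 of 6 by the study table, and none higher. The list as a whole was not lowered evenly. Its median log2 fold change was -0.13, with 5 genes negative and 4 positive, the highest at 1.17. COR15B, a chloroplast stroma protein that protects membranes in frost, had signals of 98.5, 62.1 and 65.1 in wild type and of 16.3, 19.0 and 22.1 in amp1-13, log2 fold change -1.43 ± 0.23 (SE), adjusted p = 0.00856. GOLS2, a galactinol synthase, fell from 63.1 ± 13.3 (SD, n = 3) to 6.98 ± 5.09 (SD, n = 3) and CBF3, a transcription factor that switches the regulon on, from 47.4 ± 7.13 (SD, n = 3) to 16.4 ± 0.31 (SD, n = 3). CBF3 lost its call without wild type array 3 and without quantile normalization. With an offset of 64 none of the 3 was called. COR47 of the same regulon was bright in both genotypes and differed by 0.21. Among 11 abscisic acid genes, 10 of them named by the study table, only CYP707A3, which inactivates the hormone, was called (2.22). CYP707A3 was named by the study table, and its call was lost without amp1-13 array 1 or wild type array 3.

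Further large falls were those of HB52, a homeodomain leucine zipper factor, from 102.9 ± 30.4 (SD, n = 3) to 11.7 ± 4.55 (SD, n = 3), and of the pectin methylesterase gene ATPMEPCRD, from 126.1 ± 14 (SD, n = 3) to 25.3 ± 1.78 (SD, n = 3). The fall of ATPMEPCRD had the smallest adjusted p of the named falls, 0.000859. AT1G22160 fell by 2.17, AT5G62280 by 2.11, AT5G57760 by 2.04, AT3G53980 by 1.95, AT1G64590 by 1.90, AT3G48970 by 1.85 and AT5G25840 by 1.8 on the log2 scale, and each was called in every leave-out. AT3G29970 was bright in wild type, with signals of 1643, 878.5 and 1589 there and of 116.4, 318.4 and 601.3 in amp1-13. Its mutant arrays differed widely, and the call was lost without amp1-13 array 1 or 2, wild type array 1 or 3 or cyp78a5,7 array 2. AT1G73120 and AT1G29090 fell by 1.85 and 1.88 on the log2 scale. The first call was lost without amp1-13 array 1 or wild type array 1 or 3, the second without wild type array 3.

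**Figure D4:**
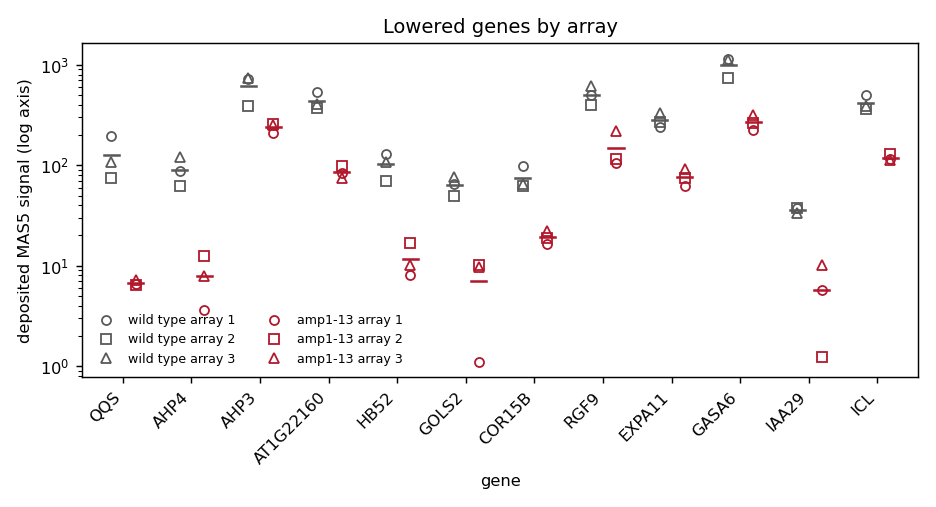
The deposited signal (log axis) of 12 lowered genes is shown for each of the 3 wild type arrays (grey) and the 3 amp1-13 arrays (red), with bars at the means of the signals. For every gene shown the 3 amp1-13 arrays lay below the 3 wild type arrays, and QQS fell from 125.9 ± 62.3 to 6.76 ± 0.406 (SD, n = 3).

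Genes of the shoot meristem and of the microRNA pathway, the processes for which amp1 is best known, were hardly covered by named probe sets. Only 10 of 50 listed genes of the meristem and organ polarity and 4 of 47 of small RNA pathways had one. The other listed genes were not analysed here, so the counts do not describe these processes as a whole. None of the 10 measured meristem and polarity genes was called, and their log2 fold changes lay between -0.24 and 0.47 with a median of 0.12. PHV, a class III homeodomain factor of the upper leaf side and a microRNA target, had signals of 59.2, 87.2 and 75.8 in wild type and of 97.9, 104.4 and 112.6 in amp1-13, a log2 difference of 0.36 with an adjusted p of 0.0408. All amp1-13 arrays lay above wild type, below the fold threshold. CLV3, the stem cell peptide, was at the bottom of the scale, at 0.651 ± 0.0787 (SD, n = 3) in wild type and 4.5 ± 4.89 (SD, n = 3) in amp1-13, and was not called (adjusted p = 0.308).

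Of 4 measured genes of the list for small RNA pathways none was called. Of the other genes the study examined, CYP78A7 was dim, with signals of 11.5, 9.46 and 12.7 in wild type and of 12.2, 31.9 and 28.7 in amp1-13, overlapping between the groups, adjusted p = 0.198. RAP2.6L, an ethylene response factor, had signals of 30.7, 24.9 and 26.9 in wild type and of 83.6, 84.8 and 78.3 in amp1-13. Its log2 fold change of 1.1 ± 0.24 (SE) had an adjusted p of 0.0235, and its call was lost without any one of the 6 arrays. LAMP1, CYP78A5, WUS and AGO1 were not analysed here.

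Cell cycle genes were likewise not called (0 of 10 by limma, 2 at the adjusted p alone and both lower). SIM, a cyclin-dependent kinase inhibitor of the leaf epidermis, went from signals of 150.7, 226.5 and 213.1 to 110, 108.9 and 125.1, adjusted p = 0.0516. The D-type cyclin gene CYCD3;1 had a difference of -0.03. As to organs, 1 of 7 measured root genes was called higher and 1 lower, both among the 3 named by the study table. The fall was that of RGF9, given above, by 1.71 on the log2 scale, and it held in every leave-out. PYK10, an abundant root protein, differed by 0.09. The root hair wall protein PRP1 rose by 1.70, a call lost without amp1-13 array 1 or 2 or wild type array 1 or 3. OLEO3, an oil body protein of the seed, remained near the bottom of the scale in both genotypes, at 8.62 ± 6.28 (SD, n = 3) and 12.9 ± 8.6 (SD, n = 3).

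Of 9 measured genes linked to darkness, dormancy or sugar starvation, 4 were called higher and 1 lower, all among the 7 named by the study table, and 7 of the 9 passed the adjusted p. The rises included EXL1, an EXORDIUM-like protein of low carbon (2.1), BT2 and EXL5 (1.12). DYL1, a dormancy-associated protein, fell by 1.4 on the log2 scale. The DYL1 call was lost without amp1-13 array 1 or 2 or wild type array 3. SAG13, PRR5 and LSU2, each named by the study table, were the only calls of their lists. Of 5 genes of chlorophyll breakdown and senescence the reductase SAG13 was called higher (1.22), and of 2 clock genes PRR5, a pseudo-response regulator (1.25), whose call was lost without any amp1-13 array or wild type array 1. Of 11 genes of sulphate and phosphate starvation LSU2, induced by low sulphur, was called lower (-1.22), a call lost without any amp1-13 array or wild type array 1 or 3. None was called among 5 genes of iron and metal homeostasis, 2 of ethylene, 2 of the seed and 1 of heat shock.

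Whether amp1-13 differed from the double mutant was tested by a direct contrast of the mutants in the same fit. The wild type values do not enter that difference, but the wild type arrays enter the normalization and the estimate of the spread. Of the 410 probe sets higher in amp1-13 than in wild type, 104 were also higher in amp1-13 than in cyp78a5,7, 37 were lower and 269 were not called between the mutants. Of the 181 lower probe sets, 7 were higher, 6 lower and 168 not called. The same amp1-13 arrays chose these probe sets and enter the direct contrast, which by itself favours a difference in the direction of the choice, so nothing is read from these counts. Over all probe sets the mutants differed at 3.92%, and a difference that was not called does not show that the mutants were alike. The comparisons of the mutants with wild type share the wild type arrays.

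In the direct contrast 3 of 7 genes of the carbon fixation list, the cytosolic FBA5 among them, were called higher in amp1-13 and none lower. Of 8 genes of light harvesting 2 were called higher and none lower. Over all probe sets 1.76% were called higher, a share that was not worked out for those named by the study table. Of 14 starch and sugar genes 1 was higher and 1 lower. FBA5 had a log2 fold change of 2.2 in amp1-13 and of -0.33 in cyp78a5,7, a difference of 2.52 (adjusted p = 0.000464), and PRK of 1.51 and 0.15, a difference of 1.36 (adjusted p = 0.00284). LHCB2.3 was higher in amp1-13 by 1.8 and BAM5 by 2.02. NEET (2.35), AT3G15450 (2.22) and DFR (1.63) likewise rose in amp1-13 and were higher there than in the double mutant. The direct calls of these 7 genes held in every leave-out. However, the genes were named for their rise on the same amp1-13 arrays, which by itself favours a higher value there than in the double mutant. CA1 and PSBY, with differences of 0.79 and 0.87, passed the adjusted p but not the fold threshold.

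Differences in the other direction were called for many jasmonate and nitrate genes. Of the wound and defence transcription factors 7 of 29 were lower and 1 higher, and of the 15 touch and calcium genes none was called. JAZ1 had a log2 fold change of 2.24 in amp1-13 and of 4.13 in cyp78a5,7, and was lower in amp1-13 by 1.89 on the log2 scale (adjusted p = 0.00303). LOX3 was lower than in the double mutant by 2.89 and JAZ2 by 2.17, and 19 of the 29 jasmonate genes were called lower in amp1-13 than in cyp78a5,7. Of the nitrate genes 9 of 16 were called lower, among them NIA1, with a difference of -2.06, and NIR1, with one of -2.75. Most of these genes were named through the table in which the double mutant's changed genes were listed, which favours those that moved there. Over all probe sets 2.15% were called lower in amp1-13 than in cyp78a5,7, but this share was not worked out for those named by the study table. Other lists rich in such names also held many calls lower, with 7 of 11 abscisic acid genes (1 higher) and 6 of 16 of oxidative stress (0 higher). Of 11 sulphate and phosphate genes, however, 1 was lower and 5 were higher. The calls lower were thus not particular to jasmonate and nitrate genes.

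Some falls in amp1-13 were called in the direct contrast as well, and those given here were picked out once the values were known. ICL, the isocitrate lyase of the glyoxylate cycle, had signals of 498, 365.4 and 387.1 in wild type and of 114.3, 128.9 and 113.9 in amp1-13, with a log2 fold change of -1.68 ± 0.27 (SE) in amp1-13 and of 0.07 in cyp78a5,7. The difference of -1.75 between the mutants had an adjusted p of 0.00595. COR15B differed by -1.40, AT4G30650 by -1.57 and AT1G29090 by -1.92 in the same direction, each with a log2 change between -0.03 and 0.08 in the double mutant. The direct call of COR15B was lost with an offset of 64. SEP3, a MADS factor of floral organs, went the other way, from signals of 38.9, 32.4 and 36.6 in wild type to 175.6, 193.4 and 207.9 in amp1-13, and was higher than in cyp78a5,7 by 2.17.

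Individual arrays weighed on the totals. Amp1-13 array 1 was the highest mutant array for 245 of the 410 probe sets called higher (59.8%), against 33.3% of all probe sets, and wild type array 2 was the lowest wild type array for 145 of the 181 called lower (80.1%), against 37.9% of all. Leaving out 1 array gave between 236 calls higher (without wild type array 3) and 489 (without wild type array 2). Calls lower ranged from 90 without wild type array 3 to 434 without wild type array 2. The count of 410 was 263 without amp1-13 array 1 and 261 without amp1-13 array 2. In all 6 fits that left out 1 of the compared arrays, 186 of the 410 (45.4%) and 79 of the 181 (43.6%) remained called.

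**Figure D5:**
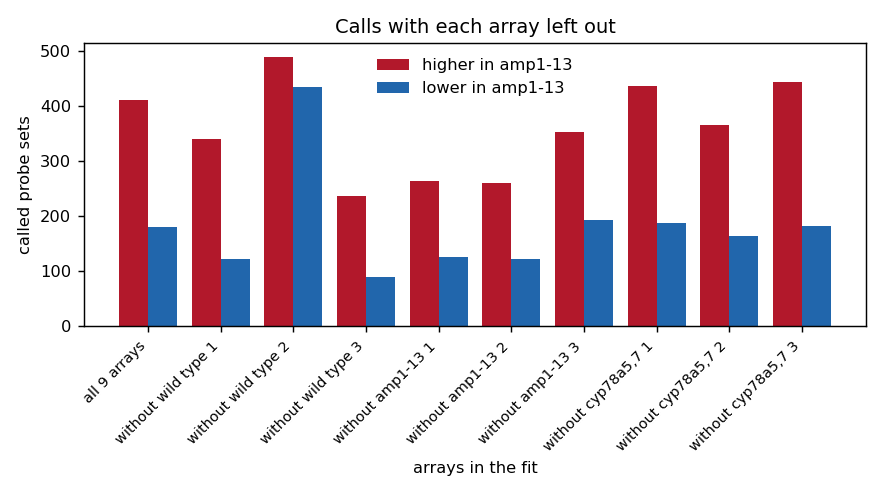
Bars give the number of probe sets called higher (red) and lower (blue) in amp1-13 against wild type with all 9 arrays and with each array left out in turn. Counts fall to 236 and 90 without wild type array 3, and the calls lower rise to 434 without wild type array 2.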

How the data were processed

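Seedling RNA of 3 genotypes was hybridised to Affymetrix ATH1 arrays. The deposited values are signal intensities, which the authors made with MAS5 on a linear scale, scaled to about the same mean on each array. The study's own results came from another summary of the raw arrays, not used here. Of 22810 probe sets, 64 controls were left out. Values were log2(signal + 16), an offset that compresses the changes of dim genes, quantile normalized over the 9 arrays. All 9 arrays entered 1 model in limma 3.58.1 (R 4.3.3) with genotype as its only term (6 residual and 2.69 prior degrees of freedom), two-sided, with Benjamini-Hochberg adjustment over 22746 probe sets. Calls needed an adjusted p under 0.05 and 2-fold. Log2 fold changes and SE come from this fit, and signals and their SD are as deposited. The fit was also tested on simulated data.

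Gene lists (31 lists, 1155 genes) gave 325 genes with a named probe set, 126 by annotation and 199 by the study's table, where the brightest probe set stood for a gene. A further 503 probe sets had several genes and 7910 no name. The genes, lists and comparison were chosen with earlier results of these data known. Named were the 15 largest rises and falls with 1 gene, a signal of at least 50 and no overlap, up to 4 called members and the brightest uncalled member of a list, the studied genes and genes called in opposite directions. Other names were picked once the values were known. Alternatives were other scalings, offsets, filters, variance models and fold thresholds, annotated probe sets alone, the 2 genotypes alone, a replicate block and each array left out. Probes shared by related genes were not separated, and the number of arrays limits the precision.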

Additional observations from a re-analysis of the deposited data

Results flagged for a closer look

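Among all named genes, 4 were called in opposite directions in the mutants, higher than wild type in amp1-13 and lower in cyp78a5,7, and were called in the direct contrast of the mutants by limma. XTH6 had log2 fold changes of 1.64 in amp1-13 and -1.23 in cyp78a5,7, a difference of 2.87 (adjusted p = 0.00158). AT5G22920 had 1.27 and -1.48, a difference of 2.75 (adjusted p = 0.00119). AT4G33720 had 1.34 and -1.09, a difference of 2.44 (adjusted p = 0.00174). ERF104, an ethylene response factor, had 1.1 and -1.13, a difference of 2.23 (adjusted p = 0.00174). The 4 direct calls held in every leave-out. The direct contrast is the difference of the changes by which these genes were chosen. It was thus bound to be large, and the direct calls add no further support. The calls of amp1-13 against wild type were each lost without amp1-13 array 1, those of AT5G22920, AT4G33720 and ERF104 also without amp1-13 array 2, and those of AT5G22920 and ERF104 without wild type array 3. ERF104 lost its call without amp1-13 array 3 too.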

How the results depend on the processing

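No alternative reversed a result. Over a limited set of genes and settings a call was lost 169 times and gained 4 times. These are not the losses over all called probe sets. Without amp1-13 array 1 alone, 242 of the 410 calls higher and 110 of the 181 lower were kept. The counts of called list members moved by over 1.5 times in 121 cases, and the counts of called probe sets in 34 and not in 68 others. Against 410 calls higher, 181 lower, 591 in all, 2734 at the adjusted p alone and 891 between the mutants, an offset of 64 gave 184, 58 and 242, and 411 between the mutants. No offset gave 887 at the adjusted p alone. Annotated probe sets alone, which are fewer, gave 166, 102, 268, 1371 and 419. At 1.5-fold the counts were 950, 930 and 1880, with 2070 between the mutants, and at 3-fold 89, 28 and 117, with 259. Centring on the 75th percentile gave 421 higher and 236 lower. Leaving out 1 array gave 236 to 489 higher, 90 to 434 lower, 326 to 923 in all 738 to 4570 at the adjusted p alone and 553 to 1270 between the mutants.

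With the replicate number as a block, 406 probe sets were higher and 173 lower, 579 in all, 2163 at the adjusted p alone. Deviations of wild type and amp1-13 arrays with the same number correlated at -0.007, 0.098 and 0.161. Those of arrays with different numbers correlated at -0.172 to 0.080, so the values of 0.098 and 0.161 lay above all of these. Whether the numbers pair arrays is thus not settled, and the main fit did not pair them. Under the block the plastid count was 5 and the nitrate count 2.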

Other observations

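Of 6604 pairs of adjacent measured genes, 11 had both members called, 7 both higher, 3 both lower and 1 in opposite directions. The pairs included the polygalacturonase inhibitors PGIP1 and PGIP2 (log2 fold changes of 1.28 and 1.28), whose probes were not separated from each other, and TPS11 with its neighbour AT2G18690 (2.02 and 1.88). The cold-responsive AT4G30650 and its neighbour AT4G30660 were both lower (-1.49 and -1.01).

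Over the nuclear chromosomes, 1.49% (chromosome 5) to 2.44% (chromosome 2) of annotated probe sets were called.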
